A study of Rattus norvegicus with 9 samples.

Results

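Inflammatory and osteoclast-inducing signals, 8 genes in all, were followed through healing of the rat patellar enthesis: the transcription factor gene *Nfkb1*, the cytokine gene *Tnf*, the adhesion molecule genes *Icam1* and *Vcam1*, the osteoclast ligand gene *Tnfsf11*, and the colony stimulating factor genes *Csf1*, *Csf2* and *Csf3*. They were chosen by gene symbol, as *Nfkb1*, *Tnf*, *Tnfsf11*, *Icam1*, *Vcam1* and every symbol beginning with Csf, and are 8 of the 84 target genes of a quantitative PCR array for osteogenesis. All 9 groups came from male Sprague Dawley rats. Native tissue was the uninjured enthesis, and its label gives 4 weeks. S-MT and S-AT were repaired with a biphasic silk fibroin scaffold, whose bone-like and tendon-like ends met in a mixed transition in S-MT and in an abrupt one in S-AT. In ED, the empty defect, the tendon was sutured back to the bone with nothing in the defect. In TC the tendon was cut across near the enthesis and the bone was spared. The methods give TC no treatment, while its label gives a tendon-to-tendon suture. Each operated group was sampled at 4 weeks (4W) and 12 weeks (12W) after surgery. Tissue was taken for PCR after the mechanical test of the same specimen. Only 1 value was given for each gene in each group, and whether it stands for an individual rat, for several averaged rats or for RNA that was pooled is not stated. Therefore no difference could be set against the spread between rats, no test was possible, and every fold below is a description of these 9 columns of values.

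The protein of *Nfkb1* is a subunit of NF-kB, which waits in the cytoplasm and enters the nucleus when cells meet inflammatory stimuli. TNF is one of those stimuli, and the promoters of ICAM-1 and VCAM-1, by which endothelium and stromal cells hold leukocytes, are known NF-kB targets in human cells. M-CSF, the product of *Csf1*, keeps monocytes and osteoclast precursors alive, and RANKL, the product of *Tnfsf11*, drives these precursors to become bone-resorbing osteoclasts. GM-CSF (*Csf2*) and G-CSF (*Csf3*) act on granulocytes and macrophages. At a tendon insertion these signals accompany wound inflammation and the remodelling of bone.

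Since several of these genes are known NF-kB targets, the promoter windows of the genes were searched for the NF-kB consensus (the kB site) on both strands. A window held 250 bases before and 50 bases after the start of the gene in RefSeq (build GRCr8). Windows were found for 6 of the 8 genes, and 2 of these held a site, as did 4.18% of all 33469 windows. The 2 matching stretches are shown, 5′ to 3′ on the strand of the gene, with the match to the consensus in capitals. Variants of the consensus were not searched for. That of *Vcam1* lay on the minus strand at chr2:206742842-206742901, with the site at bases -93 to -84 from the start. That of *Nfkb1* lay on the minus strand at chr2:226805440-226805469, with the site at bases 4 to 13 after the start.
Vcam1: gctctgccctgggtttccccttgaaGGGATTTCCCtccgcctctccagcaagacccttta
Nfkb1: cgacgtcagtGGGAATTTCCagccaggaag
No match was found in the windows of *Tnf*, *Tnfsf11*, *Icam1* and *Csf2*, and *Csf1* and *Csf3* were not searched. A match is a stretch of letters and not evidence of binding.

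The measured quantity was the threshold cycle (Ct), the PCR cycle at which a well crosses the detection threshold, so that a Ct lower by 1 stands for about 2-fold more template. A Ct of 35 was the limit of detection in the methods. Between 20 (native) and 83 (ED 12W) of the 84 target genes were at or under it. The mean Ct of *Ldha* and *Rplp1*, the reference genes, lay between 25.73 and 30.02. Well H06, which holds the genomic DNA control in the usual layout of this kind of plate but is not named in the sources used here, lay between 29.16 and 36.53. A gene with a Ct close to that of H06 of the same group is therefore one whose signal was no stronger than that well. Collagen genes *Col1a1* and *Col3a1*, which mark tendon matrix, were under 35 in all 9 groups. The bone genes *Bglap* and *Dlx5* were at or under 35 in ED 12W and TC 12W alone, and *Sp7* and *Sost* in ED 12W alone. Other bone genes were found more widely. *Alpl* and *Phex* were at or under 35 in S-MT 12W, ED 12W and TC 12W, and *Vdr* in S-MT 12W and ED 12W. *Runx2* was so in every scaffold group and in ED 12W.

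S-AT 12W and ED 12W stood apart. In S-AT 12W wells H10 to H12, the positive PCR controls of the usual layout, had a mean Ct of 26.04 against 19.13 to 21.86 in the other 8 groups, and the Ct of a gene moved with its row on the plate. In ED 12W the same wells had the lowest mean Ct, 19.13, the Ct of the 84 targets had an SD of 1.504 cycles against 1.97 to 3.96 elsewhere, and H06 was earliest, at 29.16. These facts hold for every result below that rests on either group, and their part in those results was not tested.

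Of the 72 combinations of the 8 genes and 9 groups, 35 had a Ct at or under 35, which is 48.6%, beside 57.8% for all targets. Another 28 had a Ct over 35 and 9 were undetermined. None of the 8 genes was detected in native tissue or TC 4W, and 1 was detected in ED 4W. In TC 12W 3 were detected, as were 5 in S-MT 4W and S-AT 12W, 6 in S-AT 4W, 7 in S-MT 12W and 8 in ED 12W. The share of all targets detected was also low in native (23.8%), TC 4W (28.6%) and ED 4W (42 of 84), was 52.4% in S-AT 12W, 60.7% in both S-MT 4W and TC 12W, 66.7% in S-AT 4W and 78.6% in S-MT 12W, and was highest in ED 12W (98.8%). The counts of the 8 genes thus followed much the same order of groups as the whole array.

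**Figure D1:**
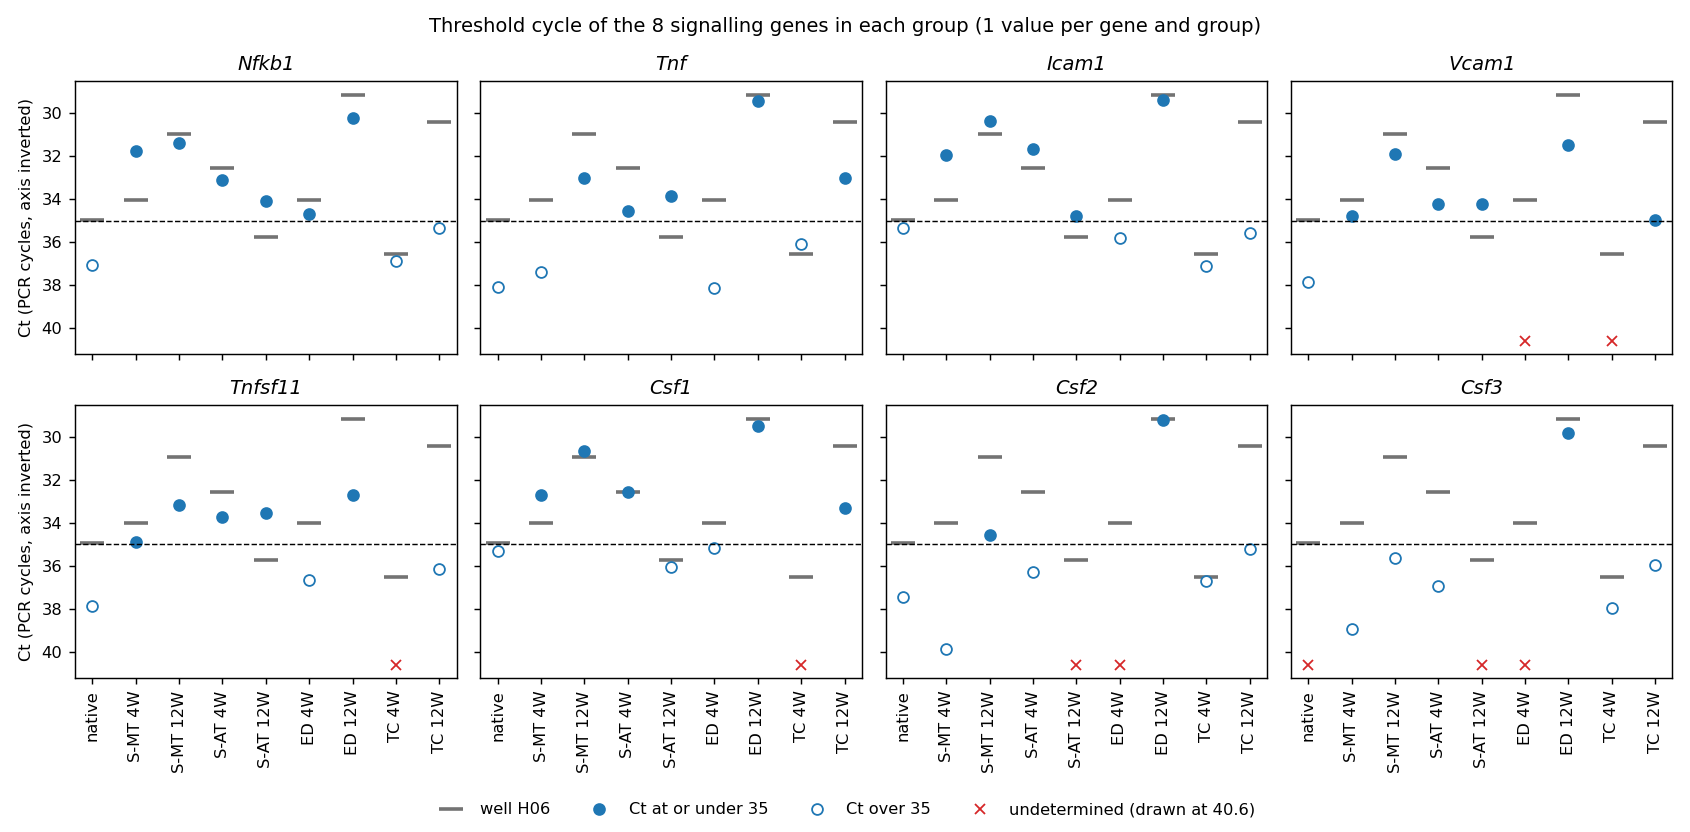
Ct of each of the 8 genes (PCR cycles, inverted so that more template is higher) in the 9 groups, 1 value each, with the Ct of well H06 of the same group as a grey bar and the limit of 35 as a dashed line. Filled points are at or under 35, open points over it, and crosses were undetermined. All 8 genes were detected in ED 12W alone, where H06 was also earliest (29.16).

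Distance to H06 gave a narrower view. Only 12 of the 72 values were ahead of H06, and 7 (9.72%) were ahead by at least 1 cycle, beside 27.2% of the values of all targets. These 7 were in S-MT 4W, with *Nfkb1*, *Icam1* and *Csf1* ahead by 2.28, 2.07 and 1.30 cycles, and in S-AT 12W, with *Tnfsf11*, *Tnf*, *Nfkb1* and *Vcam1* ahead by 2.21, 1.88, 1.67 and 1.54 cycles. In S-AT 12W 42 of the 84 targets were ahead by at least 1 cycle, the most of any group. In ED 12W, where all 8 genes were detected, none was ahead of H06, and their distances ran from 0.05 cycles behind (*Csf2*) to 3.54 behind (*Tnfsf11*). In TC 12W the distances ran from 2.58 (*Tnf*) to 5.74 (*Tnfsf11*) behind, and only 2 of all 84 targets were ahead. Detection by the limit of 35 and distance to H06 thus ordered the groups differently.

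**Figure D2:**
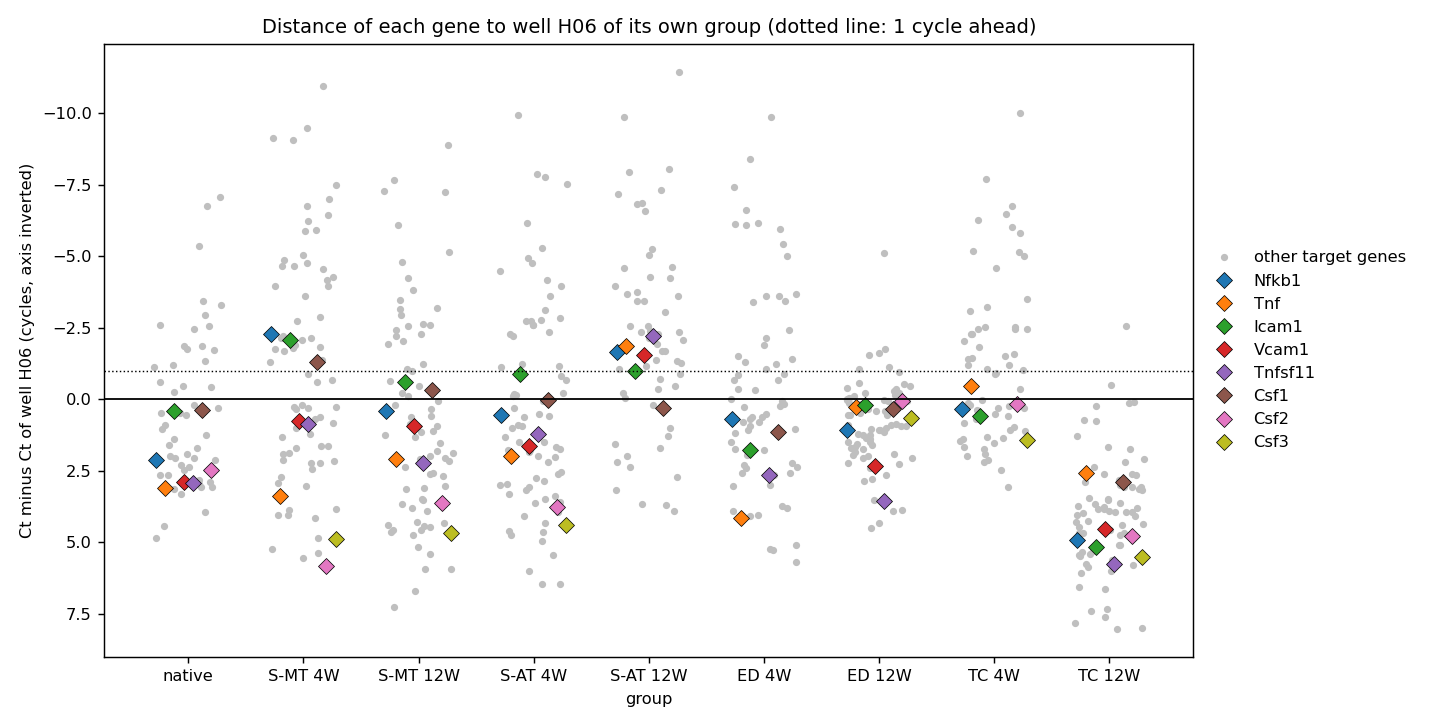
Ct of each gene minus Ct of well H06 of the same group (cycles, inverted), for the 8 genes (diamonds) and the other target genes (grey points). Points above the solid line were ahead of H06 and those above the dotted line by over 1 cycle, as were 3 of the 8 genes in S-MT 4W, 4 in S-AT 12W and none elsewhere.

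*Nfkb1*, the NF-kB subunit, was one of the 2 genes detected in the most groups, 6 of 9. Its Ct was 37.05 in native, 31.74 in S-MT 4W, 31.37 in S-MT 12W, 33.11 in S-AT 4W, 34.07 in S-AT 12W, 34.68 in ED 4W, 30.23 in ED 12W, 36.88 in TC 4W and 35.32 in TC 12W. After subtraction of the reference genes the order from high to low was ED 12W, S-MT 4W, S-MT 12W, S-AT 4W, ED 4W and S-AT 12W, a range of 20.1-fold. S-MT 4W and S-MT 12W were neighbours in this order and differed by 0.04 on the log2 scale.

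*Tnf*, whose product activates NF-kB, was late in most groups. Its Ct was 38.06 in native, 37.38 in S-MT 4W, 33.02 in S-MT 12W, 34.53 in S-AT 4W, 33.86 in S-AT 12W, 38.14 in ED 4W, 29.43 in ED 12W, 36.08 in TC 4W and 33.01 in TC 12W. ED 12W and TC 12W held the highest levels and differed by 0.06 on the log2 scale, and the 5 detected groups spanned 30.3-fold. *Tnf* was 2.08 cycles behind H06 in S-MT 12W, 0.26 behind in ED 12W and 2.58 behind in TC 12W.

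*Icam1*, which binds leukocyte integrins, was detected in both scaffold groups at both times and in ED 12W. Its Ct was 35.34 in native, 31.95 in S-MT 4W, 30.35 in S-MT 12W, 31.65 in S-AT 4W, 34.75 in S-AT 12W, 35.78 in ED 4W, 29.36 in ED 12W, 37.10 in TC 4W and 35.56 in TC 12W. The range of 59.0-fold between ED 12W and S-AT 12W was the widest of the 8 genes when only groups at or under 35 were counted. Between the same 2 groups *Csf1* and *Csf2*, past 35 in S-AT 12W, differed by at least 63.9-fold and 77.4-fold. *Icam1* was ahead of H06 in all 4 scaffold groups, by 0.60 to 2.07 cycles, and in no other.

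*Vcam1*, the other adhesion molecule, was detected in 6 groups. Its Ct was 37.84 in native, 34.78 in S-MT 4W, 31.88 in S-MT 12W, 34.19 in S-AT 4W, 34.19 in S-AT 12W, 31.49 in ED 12W and 34.94 in TC 12W, and it was undetermined in ED 4W and TC 4W. TC 12W, ED 12W and S-MT 12W held the highest levels, and S-MT 12W lay 0.21 below ED 12W on the log2 scale.

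*Tnfsf11*, which encodes RANKL, had the narrowest range over its detected groups among the 6 genes detected in at least 5 groups, 3.07-fold. Its Ct was 37.86 in native, 34.90 in S-MT 4W, 33.16 in S-MT 12W, 33.74 in S-AT 4W, 33.52 in S-AT 12W, 36.65 in ED 4W, 32.70 in ED 12W and 36.16 in TC 12W, and it was undetermined in TC 4W. It was ahead of H06 in S-AT 12W only.

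*Csf1*, which encodes M-CSF, was detected in 5 groups. Its Ct was 35.33 in native, 32.72 in S-MT 4W, 30.64 in S-MT 12W, 32.56 in S-AT 4W, 36.05 in S-AT 12W, 35.15 in ED 4W, 29.49 in ED 12W and 33.32 in TC 12W, and it was undetermined in TC 4W. Native and ED 4W lay just over the limit, so their place outside the detected groups rests on it. The S-MT 4W and S-AT 4W levels were neighbours and 0.25 apart on the log2 scale.

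*Csf2* and *Csf3*, the granulocyte factors, were the least detected. *Csf2* was detected at Ct 34.56 in S-MT 12W and 29.22 in ED 12W, had a Ct between 35.19 and 39.85 in 5 groups, and was undetermined in S-AT 12W and ED 4W. *Csf3* was detected in ED 12W only, at 29.82, had a Ct between 35.62 and 38.92 in 5 groups, and was undetermined in native, S-AT 12W and ED 4W. Neither was ahead of H06 in any group, so outside ED 12W these genes were near or past the limit of the assay.

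Folds between groups were taken after subtraction of the reference genes, with any Ct over 35 or undetermined set to 35, and a gene past 35 in both groups was left out. A fold with one group past 35 is a bound, and a shift is a fold of at least 2 in a direction that its bound allows. Each count is set beside the share of all targets that shifted the same way, since a share near it says nothing particular of the 8 genes.

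The first question was how the signals changed from 4 to 12 weeks in each treatment. In S-MT, 5 of the 7 genes with a fold were higher at 12 weeks, as were 36.4% of the 66 targets tested. *Vcam1* rose most, by 2.49 on the log2 scale, followed by *Csf1* at 1.67, *Tnf* at 1.56 or more, *Tnfsf11* at 1.32 and *Icam1* at 1.19. *Nfkb1* had a value of -0.04, *Csf2* one of 0.02 or more, and *Csf3* was past 35 at both times. The median was 1.32 for the 7 genes and 0.90 for all targets. The Ct of H06 fell by 3.07 cycles between these groups, while that of *Vcam1* fell by 2.90 and those of *Csf1*, *Tnfsf11* and *Icam1* fell by 2.08, 1.73 and 1.60. Of the 5 higher genes only *Tnf* gained more cycles than H06, and its Ct fell by 4.36 from a value over 35.

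In S-AT the direction was the opposite. At 12 weeks 4 of the 6 genes with a fold were lower, as were 75.4% of the 57 targets tested. *Icam1* had a log2 fold of -4.26, *Csf1* one of -3.60 or below, *Nfkb1* of -2.12 and *Vcam1* of -1.16. *Tnfsf11* at -0.94 and *Tnf* at -0.49 did not reach a 2-fold shift, and *Csf2* and *Csf3* were past 35 at both times. The median was -1.64 for the 6 genes and -2.14 for all targets, so the share of the 8 genes did not exceed that of the array.

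The Ct changes in S-AT followed the rows of the plate. From 4 to 12 weeks the other targets of rows A to E came later by row medians of 2.48 to 3.25 cycles, those of row F by 0.04, and those of row G came earlier, with a median change of -0.77. The reference genes, in row H, came earlier by 1.16. *Icam1*, in row D, came later by 3.10 cycles beside a row median of 3.13. *Tnf*, *Tnfsf11* and *Vcam1*, in row G, changed by -0.67, -0.22 and 0.00 cycles. *Nfkb1*, in well E09, came later by 0.96 beside a row median of 2.88, but row E was split. Its 3 other targets with a value in wells E03 to E06 came later by 2.88 to 3.71, and *Mmp9* in E08 and *Pdgfa* in E11, on either side of *Nfkb1*, by 1.07 and 0.86, so its row median describes it poorly. With the median of the same row as reference none of the 8 genes was lower, and with the median of the targets detected in all groups none was either. The Ct of H06 rose by 3.19 cycles. In S-MT the row medians lay between -1.60 and -0.86 cycles, with no such step between rows. With the same row as reference *Vcam1* was still higher at 12 weeks in S-MT, at 1.76, the other 4 higher genes lay between 0.48 and 0.83, and *Nfkb1* had a value of -1.08. What the rows stand for was not tested.

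**Figure D3:**
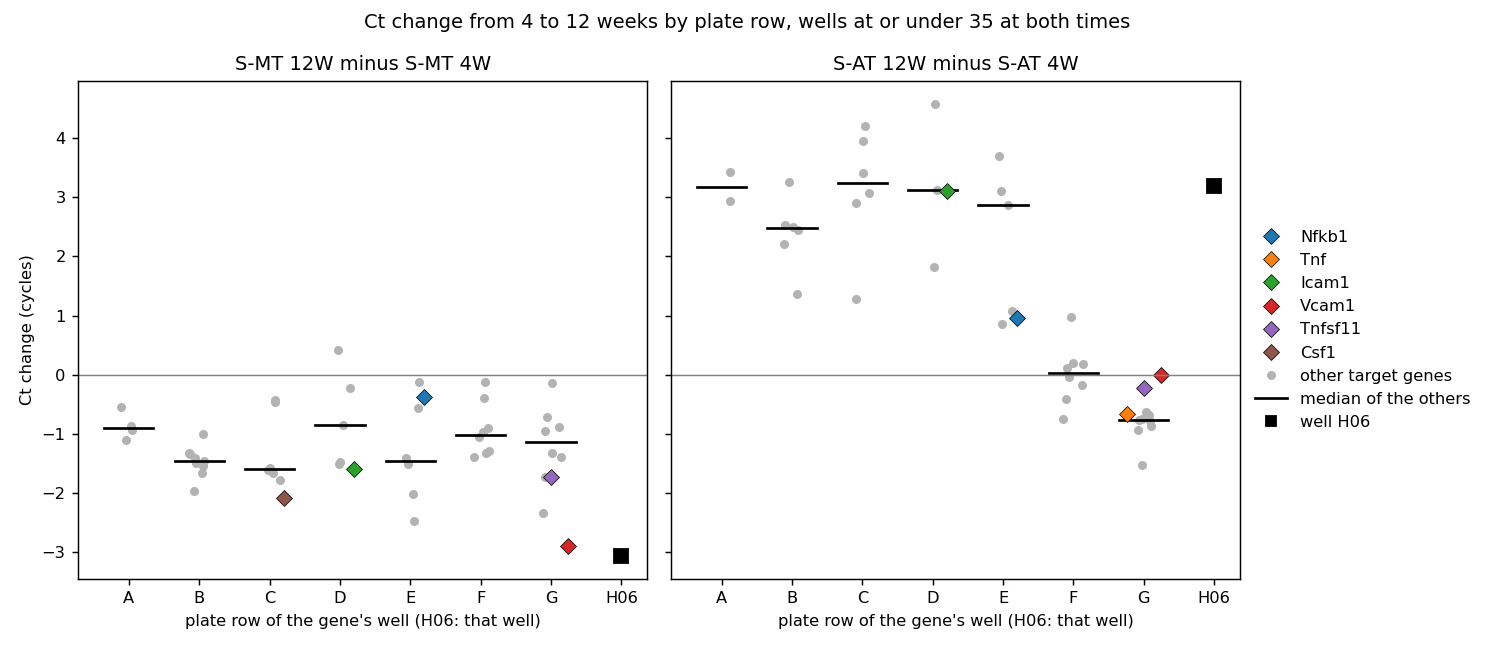
Ct change from 4 to 12 weeks (cycles) of the genes at or under 35 at both times, by plate row, in S-MT (left) and S-AT (right). Diamonds are the signalling genes, grey points the other targets, lines the row medians of the others, and black squares well H06. In S-AT rows A to E sit at medians of 2.48 to 3.25 and row G at -0.77, *Icam1* (3.10) sits at the level of its row, and *Nfkb1* (0.96) sits with the 2 later wells of a split row E.

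In ED, 7 of the 8 genes were higher at 12 weeks, as were 67.5% of the 83 targets tested. *Nfkb1* was measured at both times, with a log2 fold of 2.49. The others were past 35 at 4 weeks, with bounds of at least 3.83 (*Csf2*), 3.68 (*Icam1*), 3.62 (*Tnf*), 3.55 (*Csf1*), 3.23 (*Csf3*) and 1.55 (*Vcam1*), and *Tnfsf11* had a bound of 0.35. The Ct of H06 fell by 4.84 cycles and that of *Nfkb1* by 4.45, and with H06 as reference none of the 8 genes reached a 2-fold increase, by its value or its bound. These bounds take a Ct over 35 as 35. As deposited, the Ct of *Tnf*, *Icam1* and *Csf1* fell by 8.71, 6.42 and 5.66 cycles, more than H06, from values over 35. That of *Tnfsf11* fell by 3.95, and *Csf2*, *Csf3* and *Vcam1* were undetermined at 4 weeks. In TC only *Csf1*, *Tnf* and *Vcam1* had a fold, with bounds of at least 1.66, 1.97 and 0.03. The 2 that shifted compare with 23.1% of the 52 targets tested, and H06 fell by 6.11 cycles there.

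The study's main question was whether the transition of the scaffold mattered, and it was addressed by S-MT against S-AT. At 4 weeks the scaffolds were close. Of the 6 genes with a fold *Nfkb1* was higher in S-MT, by 1.28 on the log2 scale, and *Tnfsf11* had a value of -1.24. *Vcam1* had a value of -0.67, *Icam1* of -0.38, *Csf1* of -0.25 and *Tnf* of -0.56 or below. Over all 57 targets tested 7.02% shifted in either direction, so 2 of the 4 targets that shifted were among the 8 genes. *Nfkb1* was 2.28 cycles ahead of H06 in S-MT 4W and 0.56 behind in S-AT 4W, and *Tnfsf11* was behind in both, by 0.88 and 1.19.

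At 12 weeks all 7 genes with a fold were higher in S-MT, as were 90.9% of the 66 targets tested. *Icam1* differed by 5.06 on the log2 scale, *Csf1* by 5.02 or more, *Nfkb1* by 3.36, *Vcam1* by 2.98, *Tnf* by 1.49, *Csf2* by 1.10 or more and *Tnfsf11* by 1.02. The median was 2.98 for the 7 genes and 2.60 for all targets, and H06 came 4.79 cycles earlier in S-MT 12W. The other targets of row G, with *Tnf*, *Tnfsf11* and *Vcam1*, came earlier in S-MT by a median of 0.35 cycles, and those of row C, with *Csf1* and *Csf2*, by 5.14. With the same row as reference 1 of the 7 was still higher, *Vcam1* at 1.97, and *Nfkb1* turned to -1.02. The other targets of its row E had Ct differences of -5.04 to -1.97 cycles, beside -2.70 for *Nfkb1*. With H06 as reference none was higher.

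**Figure D4:**
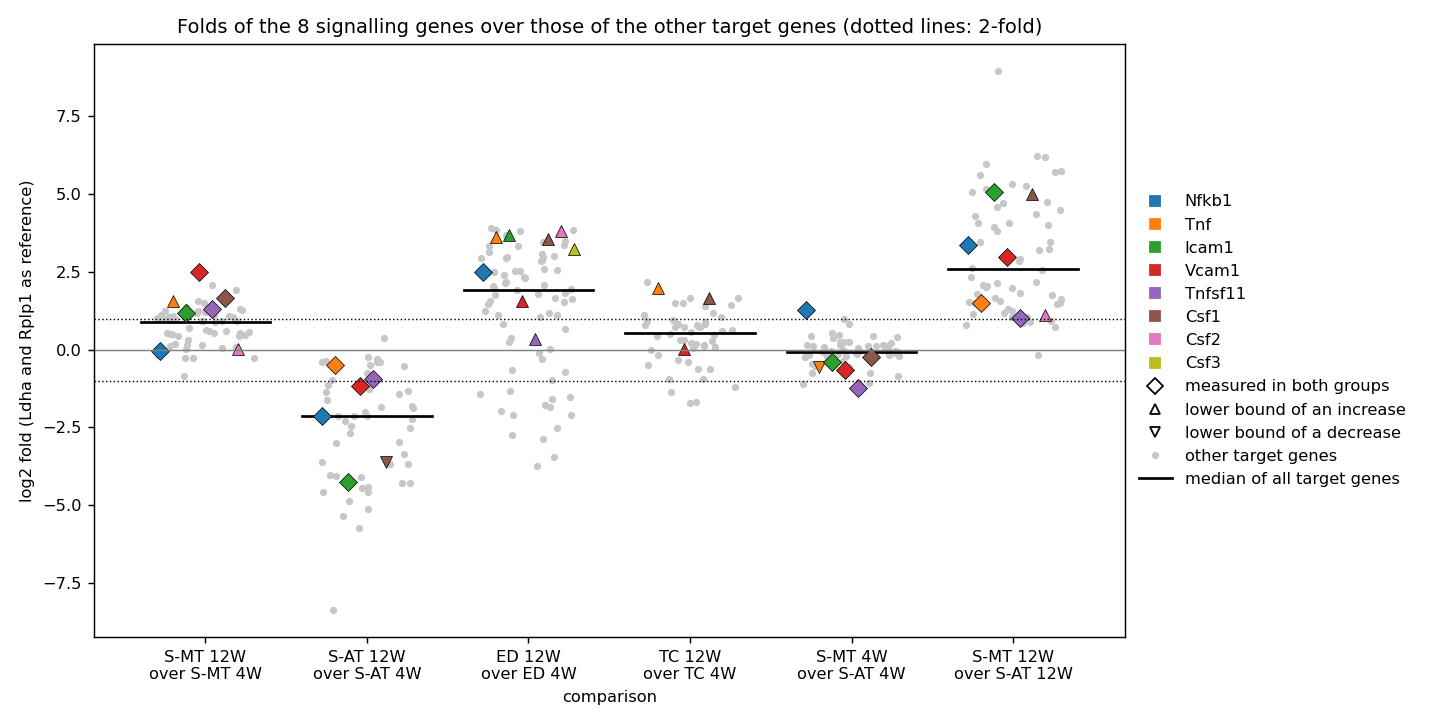
Log2 folds of the signalling genes (coloured) over those of the other targets (grey) for the 4 changes over time and the 2 comparisons of scaffolds, with the median of all targets as a black line. Diamonds were measured in both groups, and triangles point the way of a bound. In S-MT 12W over S-AT 12W all 7 genes with a fold lie above 1, as does the array median of 2.60.

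Scaffold repair was then set against the surgical controls. At 4 weeks *Icam1* was higher in both scaffold groups than in ED, with bounds of at least 1.68 in S-MT and 2.06 in S-AT. *Nfkb1* was higher in S-MT than in ED by 1.57 and had a value of 0.29 in S-AT, and *Csf1* was higher in S-AT by at least 1.16. These 2 genes for each scaffold compare with 22.6% of the 53 targets tested in S-MT and 21.1% of the 57 in S-AT. Against TC 4W no gene reached a 2-fold shift, with bounds of 0.08 for *Icam1* and 0.29 for *Nfkb1* in S-MT and 0.47 for *Icam1* in S-AT, while 31.4% and 30.4% of all targets were higher. Between ED 4W and TC 4W no gene could be given a direction.

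At 12 weeks ED held the highest level of each of the 8 genes among the groups at or under 35, except for *Vcam1*, which was 0.08 higher in TC 12W on the log2 scale. Against ED 12W, *Csf2*, *Csf3* and *Tnf* were lower in S-MT 12W, with log2 folds of -5.17, -5.02 or below and -3.43, while the other 5 genes lay between -0.98 and -0.21. The share of all 83 targets that were lower was 59.0%. All 8 genes were lower in S-AT 12W than in ED 12W, from -1.31 (*Tnfsf11*) to -6.27 or below (*Csf2*), and so were 88.0% of the targets. Both carry the compressed Ct of ED 12W, and the second also the row pattern of S-AT 12W.

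Against TC 12W, *Icam1* was higher in S-MT 12W by at least 1.30 and *Tnf* had a value of -3.38, beside 64.3% of the 70 targets that shifted in either direction. S-AT 12W was lower than TC 12W in *Csf1* (-5.70 or below), *Tnf* (-4.87) and *Vcam1* (-3.27), beside 76.7% of the 60 targets tested. ED 12W was higher than TC 12W in *Csf2*, *Icam1*, *Csf3* and *Nfkb1*, with bounds of at least 2.26, 2.11, 1.66 and 1.24, beside 31.3% of 83 targets. These comparisons of S-AT 12W and ED 12W carry the row pattern and the compressed Ct. The late reference genes of TC 12W (29.75, beside 25.73 to 26.39 in the other groups at 12 weeks) enter every level there, and the Ct of *Tnf* differed by 0.02 between S-MT 12W and TC 12W.

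Native tissue, the reference group of the study, could be compared only through bounds, since all 8 genes were past 35 in it and its reference genes were the latest, at 30.02. ED 12W was higher than native in *Csf2*, *Icam1*, *Tnf*, *Csf1* and *Csf3*, by at least 1.98, 1.84, 1.77, 1.71 and 1.38, beside 41.0% of 83 targets, with the compressed Ct of ED 12W and an H06 that was 5.78 cycles earlier than in native. TC 12W was higher in *Tnf* and *Csf1*, by at least 1.72 and 1.41, beside 29.4% of 51 targets. S-MT 12W was higher in *Icam1* alone, by at least 1.02, beside 30.3% of 66 targets. At 4 weeks no gene reached a 2-fold shift in S-MT, where *Nfkb1* had a bound of 0.04, or in S-AT, where *Icam1* had one of 0.22. Of all targets tested 29.4% and 25.0% were higher, and 2 of the 56 in S-AT were lower. In S-AT 12W, ED 4W and TC 4W none of the 8 genes could be given a direction. Of all targets tested against native, 2 were higher and 16 lower of 45 in S-AT 12W. In ED 4W 14 were higher and 2 lower of 42, and in TC 4W 6 were higher and 6 lower of 27.

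Leukocytes and osteoclasts answer these signals, so the leukocyte and osteoclast genes on the array were examined next. Their RNA in whole tissue does not count such cells. *Ctsk*, the collagen-degrading protease of osteoclasts, had a Ct of 27.59 in S-MT 4W, 25.81 in S-MT 12W, 28.05 in S-AT 4W and 31.13 in S-AT 12W, and was 4.50 to 6.43 cycles ahead of H06 in these groups. In native, ED 4W and ED 12W it was between 0.69 ahead and 0.12 behind, in TC 4W it was 2.27 ahead and in TC 12W 3.07 behind. In the 4 scaffold groups *Tnfsf11* lay between 2.21 cycles ahead of H06 and 2.22 behind, and *Csf1* between 1.30 ahead and 0.32 behind. The other genes of the list differed from each other in these 4 groups. *Cd36* was 2.22 to 3.96 cycles ahead of H06, and *Mmp9* lay between 2.08 ahead and 0.04 behind. *Itgam* lay between 0.37 ahead and 2.53 behind. *Mmp8* was 1.77 to 4.45 cycles behind and was undetermined in S-AT 12W. Fewer cells of a type and less RNA per cell cannot be told apart in such tissue.

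From 4 to 12 weeks in S-MT 3 of the 5 genes of this list were higher, beside 36.4% of the targets tested, *Itgam* by 2.07, *Mmp9* by 1.60 and *Ctsk* by 1.36, *Cd36* had a value of 0.92, and *Mmp8* was past 35 at both times. In S-AT the 4 with a fold were lower, beside 75.4% of the targets tested, with a list median of -2.92 beside -2.14 for all targets, in the group with the row pattern. In ED *Mmp9*, *Ctsk* and *Mmp8* were higher, by at least 3.85, by 2.08 and by at least 1.25, beside 67.5% of the targets tested. In TC *Mmp9* was higher by at least 1.66, beside 23.1% of the targets. The integrin partners of the adhesion molecules differed from each other in S-MT, where *Itgam*, whose protein pairs with ICAM-1, rose by 2.07 and *Itgb1*, whose protein pairs with VCAM-1, had a value of -0.28. *Itgam* was ahead of H06 in S-AT 12W only, by 0.37 cycles, at a Ct of 35.36 that is over the limit of detection.

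Osteoblast and mineralization genes, 8 in the list, shifted over time mainly in ED, the only treatment in which all 8 had a fold. All 8 were higher in ED 12W than in ED 4W, as were 67.5% of the 83 targets tested. None of the 8 was detected in ED 4W, so each of their folds was a lower bound. The median of these bounds was 2.91, beside 1.92 for the 83 targets, of which 42 were measured at both times. The 2 medians therefore do not show by how much the 8 genes differed from the array. ED 12W is the group with the compressed Ct, H06 came 4.84 cycles earlier in it, and there *Bglap* was 0.06 cycles behind H06 and *Dlx5* 0.03 ahead. In S-MT only *Phex* was higher at 12 weeks, by at least 1.28, of 4 with a fold, beside 36.4% of the targets tested. In S-AT *Runx2* was the only one with a fold, at -1.27, where 75.4% of the targets tested were lower. In TC *Phex* was higher by at least 1.49, of 4 with a fold, beside 23.1% of the targets tested.

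The genes whose level over the 9 groups was most like that of a signal were sought among the 51 targets detected in at least 5 groups. *Csf1* was most like the osteoclast gene *Mmp9* (Pearson r of 0.97 over 9 groups), *Icam1* like the cadherin gene *Cdh11* (0.93), and *Icam1* and *Nfkb1* were like each other (0.93). *Tnf* was most like *Tgfbr3* (0.94), in the next well of row G, and *Tnfsf11* and *Vcam1* were both most like *Vegfb* (0.94 and 0.95), also in row G. The points share the reference genes of each group, the limit of 35 and, in S-AT 12W, the row pattern.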

How the data were processed

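RNA of each group was reverse transcribed and measured by SYBR Green PCR on a 96-well osteogenesis plate for rat. The authors deposited a table of Ct (other unit: PCR cycles) and a table of normalized values, 2 to the power of minus the Ct difference from *Ldha* and *Rplp1* (other unit: linear level). The last table holds the authors' folds over native and was not used. Folds were recomputed from Ct in pandas 2.3.3 (Python 3.11.15; arrays in numpy 2.4.6), with 2-fold amplification per cycle, a limit of 35 and the reference genes of the methods. All 35 normalized values of the 8 genes with a Ct at or under 35 lay within 0.292% of the recomputed level. The deposited table also keeps values over 35 for *Icam1* in native, *Tnf* in S-MT 4W and *Csf3* in S-MT 12W. There were 24 comparisons (4 over time, 2 of scaffolds, 10 with controls, 8 with native). All 8 genes were named, and other genes came from lists. Genes, lists and rules were chosen with earlier results of these data known. The calculation was tested on simulated data. The precision of a single Ct cannot be given. All 84 symbols were found in RefSeq.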

Additional observations from a re-analysis of the deposited data

Results flagged for a closer look

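In 4 genes the change went in opposite directions from 4 to 12 weeks in different treatments by at least 2-fold, a difference that was not tested, since each group had 1 value. *Csf1* had log2 folds of 1.67 in S-MT, at least 3.55 in ED and at least 1.66 in TC, against -3.60 or below in S-AT. *Icam1* had 1.19 in S-MT and at least 3.68 in ED, against -4.26 in S-AT. *Vcam1* had 2.49 in S-MT and at least 1.55 in ED, against -1.16 in S-AT. *Nfkb1* had 2.49 in ED, against -2.12 in S-AT. In all 4 the opposite value came from S-AT, whose Ct changes followed the plate rows. The array as a whole moved in the same ways. Of the targets tested, 75.4% were lower in S-AT, while 67.5% were higher in ED, 36.4% in S-MT and 23.1% in TC. How many other targets went in opposite directions was not counted.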

How the results depend on the processing

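As reference, either of *Rplp1* and *Ldha* alone, the mean of the 5 housekeeping genes, or the median of targets detected in every group was tried. Other alternatives were a limit of 33, no limit, only genes at or under 35 in both groups, an amplification of 1.9, the authors' normalized values, and shifts counted only where the higher group was at least 1 cycle ahead of H06. H06 as reference and the same plate row as reference were added after seeing the data. An amplification of 1.9 and *Rplp1* alone kept every count of shifts within 1.5 times. The 35 detected values became 17 with a limit of 33, 63 with no limit and 7 at least 1 cycle ahead of H06. The 7 genes higher in S-MT 12W than S-AT 12W became 4 with a limit of 33, 2 with the median of targets, 1 with the plate row and 0 with H06 as reference. The 2 shifts between the scaffolds at 4 weeks became 1 with the median of targets and with a limit of 33, and 5 with no limit. The 5 genes higher over time in S-MT became 3 with all 5 housekeeping genes, 2 with a limit of 33, 1 with the plate row and 0 with H06. The 4 lower in S-AT became 2 with a limit of 33 and 0 with the median of targets, the plate row or H06. The 7 higher in ED became 1 with genes under 35 in both groups and with the authors' values, and 0 with H06. The 2 higher in TC became 5 with no limit and 0 with *Ldha* alone, a limit of 33, genes under 35 in both groups, the authors' values or H06. The 24 shifts against controls became 10 with a limit of 33, 40 with no limit, 11 with genes under 35 in both groups and 12 with the authors' values. The 8 against native became 0 with a limit of 33 or genes under 35 in both groups and 31 with no limit. Where the higher group had to be 1 cycle ahead of H06, 1 shift between scaffolds at 4 weeks and 2 against controls were left, and 0 in each of the other 6 counts. A limit of 33 and the restriction to both groups leave fewer genes with a fold, and the cause of the other changes was not tested.

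Of single folds over time and between scaffolds that had reached a 2-fold shift, 23 of 286 recomputed values changed sign and kept a direction, and 14 became bounds without one. Of folds under 2-fold, 8 of 106 and 11 did so. Both pools include settings that cannot change a sign, namely an amplification of 1.9, the restriction to both groups and the margin of 1 cycle to H06. Of the 2-fold shifts, H06 as reference changed the sign of 14 of 27 and left 7 as bounds without a direction. The median of targets did so for 6 and 1 of 27, and the plate row for 3 and 4 of 27. With H06 as reference, S-MT 12W over 4W became -0.99 for *Csf1*, -1.47 for *Icam1*, -1.34 for *Tnfsf11* and -0.17 for *Vcam1*, ED became -0.39 for *Nfkb1*, and S-AT became 0.089 for *Icam1*, 2.23 for *Nfkb1*, 3.19 for *Vcam1*, 3.86 for *Tnf* and 3.41 for *Tnfsf11*. S-MT over S-AT with H06 became 0.32 for *Tnfsf11*, 1.31 for *Csf1*, 1.18 for *Icam1* and 0.89 for *Vcam1* at 4 weeks, while *Tnf* lost its direction, and at 12 weeks -0.38 for *Icam1*, -2.09 for *Nfkb1*, -3.96 for *Tnf*, -4.43 for *Tnfsf11* and -2.47 for *Vcam1*. With the median of targets, S-AT 12W over 4W became 1.46 for *Nfkb1*, 2.42 for *Vcam1*, 3.09 for *Tnf* and 2.64 for *Tnfsf11*, S-MT 12W over 4W became 0.034 for *Nfkb1*, and S-MT 12W over S-AT 12W became -0.43 for *Nfkb1*, -2.30 for *Tnf*, -2.78 for *Tnfsf11* and -0.82 for *Vcam1*. With the plate row, S-AT became 0.025 for *Icam1* and 1.92 for *Nfkb1*. The row of *Nfkb1* was split in this change over time, so that its row median is a poor reference there. S-MT 12W over S-AT 12W became -1.02 for *Nfkb1*. In that comparison the other targets of row E changed by -5.04 to -1.97 cycles, with a median of -3.72. *Mmp9* in E08 was at -3.72 and *Pdgfa* in E11 at -1.97. No paired analysis was possible because each group had 1 value, and leaving out a replicate was not run for the same reason.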
